A study of Homo sapiens with 6 samples.

Results

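The genes described here are 38 genes of mesenchymal, fibroblast-like and contractile cells, followed in human embryonic stem cells after depletion of HERVH. They comprise transcription factors of the epithelial to mesenchymal transition (EMT), proteins of the extracellular matrix other than collagens, and proteins of the contractile cytoskeleton. The members were given by name, and all probes whose gene name in the deposited array table equalled a member were taken, which gave 63 probes for the 38 genes among 43960 named probes for 31334 gene names. All 38 were on the array. There were 2 groups of H1 cells, with 3 samples each. The first received 2 µg of a pSUPER plasmid for short hairpin RNA (shRNA) targeting HERVH. The second, the control, received 2 µg of a pSUPER plasmid for an shRNA targeting luciferase. H1 is an established human embryonic stem cell line, here at passage 32 on Matrigel in conditioned medium with bFGF and without feeder cells. RNA was taken from both groups 5 days after transfection and read on Illumina expression arrays. All samples come from 1 cell line, the cells were transfected as a population, and the labels do not say that the 3 samples of a group were separate cultures, so the p-values measure the spread between these samples, which may be technical.

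HERVH is an endogenous retrovirus family that pluripotent human cells transcribe at high levels, and the series asked which genes are affected when they are depleted. In EMT, cells lose epithelial junctions and gain a mesenchymal state. Transcription factors of the SNAIL, TWIST and ZEB families repress epithelial genes, N-cadherin and vimentin become prominent, and the cells deposit fibronectin and other matrix. Contractile genes such as smooth muscle actin and transgelin mark myofibroblasts and smooth muscle, and many are targets of serum response factor and its coactivators and of TGF-beta signalling. Human embryonic stem cells grow as an epithelium.

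Signals are given as quantile-normalized intensities in arbitrary units, and differences as log2 of HERVH shRNA minus control shRNA with the standard error (SE) of the limma fit. A gene was called when its Benjamini-Hochberg adjusted p over all 47230 probes was under 0.05. Each gene stands as its probe with the highest mean over the 6 samples. No sample stood apart, with correlations of log2 signals of 0.9944 to 0.9953 within groups and 0.9682 to 0.972 between them. The 95th percentile of 446 olfactory receptor probes, between 77.7 and 80.8 in the 6 samples, served as the limit of background. The signals still contain background, so folds of dim genes are smaller than the folds of the transcripts. No probe was named for HERVH, so the depletion itself was not read here. POU5F1, NANOG and SOX2, the core pluripotency factors, were above background in all 6 samples. They averaged 1409 ± 27.5, 435 ± 11.2 and 1313 ± 169 in the HERVH shRNA samples and 2870 ± 298, 575 ± 4.74 and 1770 ± 140 in the control shRNA samples (SD, n = 3). All 3 were lower with HERVH shRNA, by limma (adjusted p = 5.6e-15, 3.2e-06 and 8.3e-06).

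Of the 38 members, 23 were higher with HERVH shRNA, 1 was lower and 14 were not called. Over all 31334 genes, 15.7% were called higher and 14.0% lower (29.8% in either direction), and of the members 60.5% were called higher. The median difference of the members was 0.66 and that of all genes 0.01. More than 2-fold higher were 12 members, against 1.56% of all genes, and more than 2-fold lower was 1 member, against 1.16%. The groups did not overlap for 25 members, 24 of them called, against 38.4% of all genes. Among the 500 genes with the largest positive differences were 13 members, and among the top 100 were 6. At background in all samples of both groups were 10 of the 38 members, against 42.6% of all genes. All 10 were among the 14 members not called. As these are bulk samples, a change in the number of cells of a type and a change in RNA per cell cannot be told apart.

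**Figure D1:**
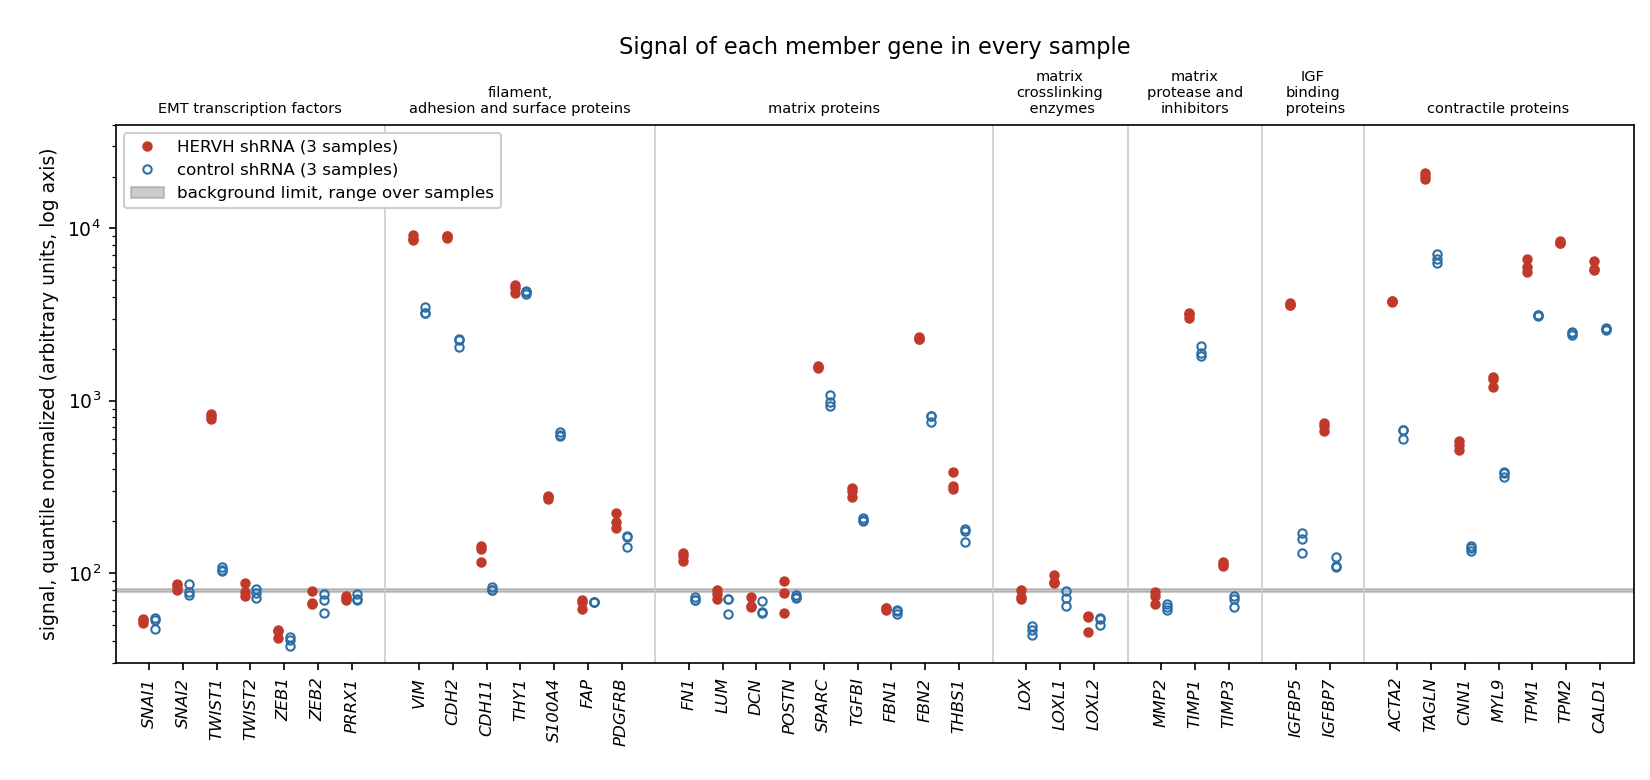
Signal of the 38 member genes in each sample, on a log axis in arbitrary units. Filled points are the 3 HERVH shRNA samples and open points the 3 control shRNA samples, and the grey band is the range of the background limit over the samples (77.7 to 80.8). Genes are grouped by role: all 7 contractile genes lie above background and separate the groups, while 6 of the 7 EMT transcription factors lie near or below the band.

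The 7 EMT transcription factors were SNAI1, SNAI2, TWIST1, TWIST2, ZEB1, ZEB2 and PRRX1, and 1 was called. TWIST1, a basic helix-loop-helix factor of mesoderm and cranial mesenchyme, had signals of 832, 786 and 814 in the HERVH shRNA samples, against 103, 103 and 109 in the control shRNA samples. Every HERVH shRNA sample was far above every control sample. The difference was 2.95 ± 0.07 on the log2 scale (SE, n = 3 each), or 7.72-fold (limma, adjusted p = 7e-27), and ranked 16 of 31334 genes from the top.

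None of the other EMT factors was called by the probe that stands for it. SNAI1, the zinc finger repressor of CDH1, had signals of 53.2, 54.3 and 51.3 with HERVH shRNA and 53.4, 47.5 and 54.9 with control shRNA. ZEB1 and ZEB2, zinc finger repressors of epithelial genes, averaged 44.8 and 70.5 with HERVH shRNA and 40.4 and 67.9 with control shRNA. SNAI1, ZEB1, ZEB2 and the homeobox factor PRRX1 were below the limit of background in all 6 samples, where the array gives no level for them. TWIST2, a relative of TWIST1, had 3 probes with mean signals of 61.9 to 79.2 with HERVH shRNA and 66.5 to 80.0 with control shRNA, and none was called.

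The probes of SNAI2 disagreed. SNAI2 encodes a repressor known from neural crest migration. Its brighter probe had 79.8, 86.6 and 83.7 with HERVH shRNA and 77.4, 86.8 and 74.4 with control shRNA, and these overlapped. The other probe had 105, 104 and 103 with HERVH shRNA and 64.0, 59.8 and 60.3 with control shRNA, all 3 of the last at background. That is at least 1.33-fold (limma, adjusted p = 5e-09), where the bound sets the dim group at the background limit of each array. With the mean of its probes as the gene's value, SNAI2 was called higher (adjusted p = 0.00016), and no size is given because that mean includes the probe at background with control shRNA.

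Among the 7 filament, adhesion and surface proteins, 4 were higher, 1 was lower and 2 were not called. CDH2, or N-cadherin, the cadherin of mesenchymal and neural cells, had 8775, 9056 and 8994 with HERVH shRNA, against 2050, 2277 and 2237 with control shRNA, a 4.09-fold difference (2.03 ± 0.06, adjusted p = 3.4e-24). VIM encodes vimentin, the intermediate filament of mesenchymal cells. Its brighter probe had 9146, 8707 and 8619 with HERVH shRNA and 3479, 3220 and 3212 with control shRNA. Neither gene's groups overlapped.

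The 2 VIM probes were both higher but by different amounts, 2.67-fold (1.42 ± 0.06) on the brighter and 4.40-fold (2.14 ± 0.06) on the other. CDH11, a mesenchymal cadherin, was near background with control shRNA and had 143, 137 and 115 with HERVH shRNA, against 82.6, 79.6 and 79.4 (0.71 ± 0.09, adjusted p = 3.9e-08). PDGFRB, the PDGF receptor of pericytes and fibroblasts, was higher by 0.38 ± 0.08 (adjusted p = 0.00041), the smallest called difference in this role.

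S100A4, a calcium-binding protein also known as fibroblast-specific protein, was the 1 member that was lower. Its signals were 278, 277 and 268 with HERVH shRNA and 627, 662 and 635 with control shRNA. The groups did not overlap, and the other probe was likewise lower, with 261, 249 and 231 against 548, 524 and 532. The differences were -1.23 ± 0.07 and -1.12 ± 0.07 (limma, adjusted p = 4.2e-17 and 1.7e-15), and S100A4 ranked 191 of 31334 genes from the lowest difference.

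THY1, a surface glycoprotein of fibroblasts that embryonic stem cells also carry, was the 1 member above background in all samples that was not called. Its signals were 4203, 4538 and 4667 with HERVH shRNA and 4306, 4147 and 4334 with control shRNA, and they overlapped (0.07 ± 0.06, adjusted p = 0.52). FAP, the surface protease of activated fibroblasts, was at background in all samples.

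**Figure D2:**
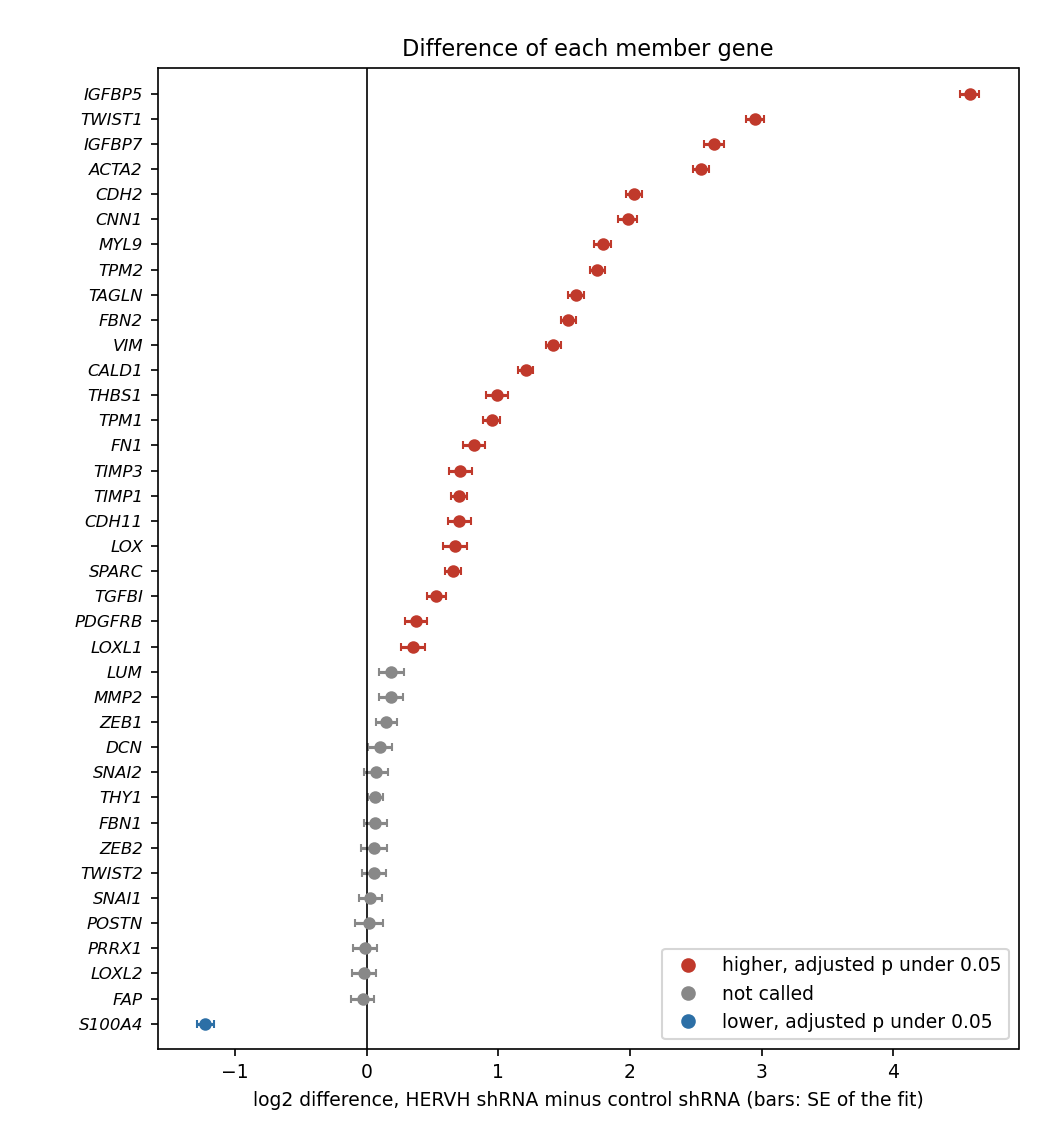
Difference of the 38 members in log2 units, HERVH shRNA minus control shRNA, ordered from the largest at the top, with bars for the SE of the fit (n = 3 each). IGFBP5 is at 4.58 and S100A4 at -1.23, and the 14 genes not called lie between -0.03 and 0.19.

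The insulin-like growth factor binding proteins held the largest difference. IGFBP5, a secreted protein that binds IGF and matrix, had 3707, 3604 and 3585 with HERVH shRNA, against 130, 157 and 171 with control shRNA. Its other probe had 2042, 2093 and 2071 against 102, 94.1 and 112. On both probes each HERVH shRNA sample exceeded each control sample many times over. The fold was 23.9 on the brighter probe and 20.2 on the other (4.58 ± 0.07 and 4.34 ± 0.07, adjusted p = 5.1e-31 for both), and the brighter probe's difference ranked 1 of 31334 genes. IGFBP7, a related secreted protein of vessels and stroma, had 668, 714 and 745 with HERVH shRNA and 125, 110 and 108 with control shRNA, a 6.22-fold difference (2.64 ± 0.07, adjusted p = 8.4e-25).

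All 7 contractile genes were higher with HERVH shRNA, 6 of them by more than 2-fold, and their median difference was 1.75. ACTA2, the smooth muscle actin that marks myofibroblasts, had 3811, 3757 and 3779 with HERVH shRNA, against 598, 680 and 674 with control shRNA. This was 5.82-fold (2.54 ± 0.06, adjusted p = 2.4e-26). CNN1, the actin-binding calponin of smooth muscle, had 581, 517 and 556 against 134, 144 and 140 (1.98 ± 0.07, adjusted p = 8e-22). Neither gene's groups overlapped.

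TAGLN, or transgelin, an actin-binding protein of smooth muscle, was the brightest member. It had 20984, 19366 and 20083 with HERVH shRNA and 7128, 6342 and 6651 with control shRNA (1.59 ± 0.06, adjusted p = 5e-21). The highest normalized signal on the arrays was 25483, so TAGLN was near the top of the range with HERVH shRNA. Of its other probes, 1 was higher by 1.24 ± 0.06 and 1 was near background in both groups and not called (adjusted p = 0.52).

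MYL9, the regulatory light chain of smooth muscle and non-muscle myosin, gave opposite signs on its 2 probes. The brighter had 1205, 1334 and 1381 with HERVH shRNA and 362, 387 and 381 with control shRNA (1.79 ± 0.07, adjusted p = 1.5e-21). The other had 304, 320 and 332 against 355, 335 and 366, above background in every sample, and was not called although the groups did not overlap (-0.15 ± 0.07, adjusted p = 0.13). Which transcripts each probe reads, also among the closely related actins and tropomyosins, was not tested, because probe sequences were not used here.

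TPM1 and TPM2 encode tropomyosins, which lie along actin filaments, and both were higher on each of their probes. TPM2 had 8238, 8249 and 8445 with HERVH shRNA and 2485, 2409 and 2504 with control shRNA, a 3.37-fold difference (1.75 ± 0.06), and its other probes were higher by 1.95 ± 0.06 and 0.47 ± 0.10. The smallest of these belonged to a dim probe with mean signals of 97.7 and 71.2. TPM1 had 6638, 5959 and 5575 with HERVH shRNA and 3101, 3152 and 3134 with control shRNA, and its 4 probes were higher by 0.78 to 0.96. CALD1, or caldesmon, which binds actin and myosin, had 6481, 5770 and 5833 with HERVH shRNA and 2570, 2635 and 2618 with control shRNA (1.21 ± 0.06, adjusted p = 6.6e-18), and its 3 probes were all higher.

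Of the 9 matrix proteins, 5 were higher and 4 were not called. FBN2, the fibrillin of embryonic microfibrils, had 2335, 2272 and 2287 with HERVH shRNA, against 819, 755 and 810 with control shRNA, a 2.89-fold difference (1.53 ± 0.06, adjusted p = 1.1e-20). FBN1, the fibrillin of adult microfibrils, was at background in every sample. THBS1, or thrombospondin 1, a matrix protein that activates TGF-beta, had 387, 319 and 306 against 181, 151 and 176 (0.99 ± 0.08, adjusted p = 5.5e-12).

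SPARC, a collagen-binding matrix protein, had 1574, 1601 and 1544 with HERVH shRNA and 1085, 929 and 986 with control shRNA (0.66 ± 0.06, adjusted p = 1.6e-10). TGFBI, a matrix protein induced by TGF-beta, had 277, 310 and 297 against 200, 209 and 203 (0.53 ± 0.07, adjusted p = 1.7e-07). In both genes the groups were close but did not overlap.

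FN1, or fibronectin, had 3 probes that were dim in every sample. On the probe that stands for the gene, the HERVH shRNA samples had 125, 130 and 117, and the control shRNA samples had 69.9, 72.8 and 69.5, below the limit of background. The difference was at least 1.59-fold (adjusted p = 7.6e-10), and a further probe was higher by at least 1.67-fold. The third FN1 probe was not called (adjusted p = 0.58). LUM and DCN, the small proteoglycans lumican and decorin of connective tissue, were at background on all of their probes. POSTN, or periostin, a matrix protein of periosteum and stroma, had 76.8, 58.5 and 89.6 with HERVH shRNA and 71.3, 72.3 and 74.7 with control shRNA, with overlap and no call.

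The enzymes and inhibitors acting on matrix were dim, apart from TIMP1. TIMP1, a secreted inhibitor of matrix metalloproteinases, had 3249, 3033 and 3168 with HERVH shRNA and 1905, 1829 and 2068 with control shRNA (1.63-fold, 0.71 ± 0.06, adjusted p = 1.1e-11). TIMP3, an inhibitor bound to matrix, had 113, 110 and 116 with HERVH shRNA, against 70.6, 63.6 and 73.4 with control shRNA at background, which is at least 1.45-fold (adjusted p = 2.5e-08). MMP2, the gelatinase whose activation TIMPs control, was at background in all samples.

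LOX, LOXL1 and LOXL2 encode lysyl oxidases, which crosslink collagen and elastin. LOX was called higher (adjusted p = 1.4e-07), with 79.5, 72.4 and 70.4 with HERVH shRNA and 46.7, 43.8 and 49.1 with control shRNA. Only 1 of these 6 values was above the limit of background, so no fold is given. LOXL1 was called on its brightest probe, with 97.9, 87.5 and 88.5 against 78.7, 64.5 and 71.6 (0.35 ± 0.09, adjusted p = 0.0027), and on neither of its other 2 probes. As the mean of its probes LOXL1 was not called (adjusted p = 0.52). LOXL2 was at background.

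Of the 38 members, 22 had 1 probe and 16 had several. All probes of a gene had the same call in 11 of these 16. In SNAI2, FN1, LOXL1, TAGLN and MYL9 they differed. Over the 63 probes, 35 were higher, 2 lower and 26 not called, where 12.7% of all 47230 probes were higher and 13.2% lower.

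**Figure D3:**
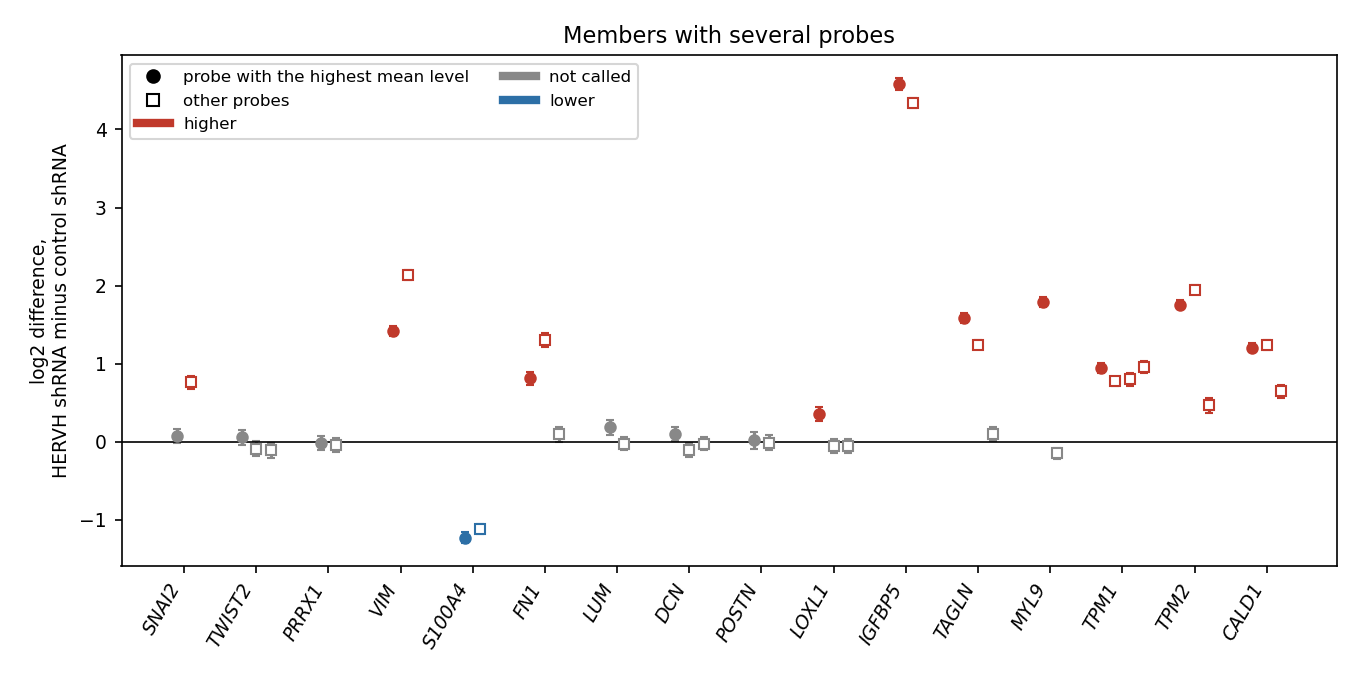
Difference of each probe in log2 units, HERVH shRNA minus control shRNA, for the 16 members with several probes, with bars for the SE of the fit (n = 3 each). Circles are the probe with the highest mean level and squares the others. The probes of IGFBP5 lie at 4.58 and 4.34, and those of MYL9 at 1.79 and -0.15.

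Promoter sequences of 4 members that rose are shown, chosen among those that hold the motif CATTCC described below. RefSeq promoters of GRCh38.p14, 250 bases before to 50 bases after a transcript start, were found for 25 of the 38 members, with 39 starts in all. The M-CAT core CATTCC, the element bound by TEAD factors, occurred on either strand in 8 of the 39 member promoters (20.5%), against 14.0% of all 35116 promoters. The 7 genes holding it were ACTA2, CALD1, FBN1, IGFBP5, SPARC, THBS1 and ZEB1, of which FBN1 and ZEB1 were at background. The CArG box, the element of serum response factor, was counted only in its strict form CCWWWWWWGG, where W is A or T. This form occurred on either strand in 0 of the 39 and in 1.29% of all promoters. Forms with a G or C in the core were not counted, and the ACTA2 sequence below holds such forms (ccctatatgg and ccttgtttgg). The E-box CAGGTG, which SNAIL and ZEB factors bind, was on either strand in 5 of the 39 (12.8%), against 20.6% of all promoters. Matches of different motifs can share end letters, and such overlap was not counted. A motif match describes the letters in this window only. In the sequences below, written 5′ to 3′ on the strand of the gene, capitals mark CATTCC or its reverse complement GGAATG.
IGFBP5, minus strand, chr2:216695500-216695799: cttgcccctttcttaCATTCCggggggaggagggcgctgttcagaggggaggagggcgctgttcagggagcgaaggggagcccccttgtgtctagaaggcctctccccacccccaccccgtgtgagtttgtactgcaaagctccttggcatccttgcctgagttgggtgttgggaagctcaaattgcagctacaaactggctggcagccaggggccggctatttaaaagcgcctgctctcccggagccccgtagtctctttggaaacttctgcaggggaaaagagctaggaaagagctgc
ACTA2, minus strand, chr10:88952724-88953023: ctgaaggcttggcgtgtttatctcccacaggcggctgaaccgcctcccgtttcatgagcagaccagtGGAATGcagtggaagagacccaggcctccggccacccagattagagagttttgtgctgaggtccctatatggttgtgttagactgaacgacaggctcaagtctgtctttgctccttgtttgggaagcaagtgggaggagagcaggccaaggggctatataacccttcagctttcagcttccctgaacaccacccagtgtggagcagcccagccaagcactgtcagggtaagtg
CALD1, plus strand, chr7:134779384-134779683: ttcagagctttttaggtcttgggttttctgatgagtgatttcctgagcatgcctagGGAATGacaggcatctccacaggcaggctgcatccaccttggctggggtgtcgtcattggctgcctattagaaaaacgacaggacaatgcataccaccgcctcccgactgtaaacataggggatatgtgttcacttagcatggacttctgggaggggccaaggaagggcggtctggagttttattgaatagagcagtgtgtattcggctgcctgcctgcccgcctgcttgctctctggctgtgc
THBS1, plus strand, chr15:39580829-39581128: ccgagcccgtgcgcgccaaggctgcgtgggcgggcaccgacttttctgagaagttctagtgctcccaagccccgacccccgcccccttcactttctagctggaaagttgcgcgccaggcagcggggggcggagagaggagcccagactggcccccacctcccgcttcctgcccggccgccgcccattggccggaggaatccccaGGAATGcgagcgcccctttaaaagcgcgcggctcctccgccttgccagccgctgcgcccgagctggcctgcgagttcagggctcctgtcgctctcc
The match lies 235 bases before the start in IGFBP5, the member with the largest difference, and 183 bases before it in ACTA2. In CALD1 it lies 194 bases before the start shown, and in THBS1 46 bases before it.

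Lists of related genes were set beside the members, each described by its counts and median. At most 4 of the called genes with the largest differences are named from each, and any further gene was added after its values were seen. In the TGF-beta pathway list, 9 of 25 genes were higher, 2 were lower and 14 were not called, with a median difference of 0.12. CTGF, a secreted matricellular protein known as a TGF-beta and YAP target, averaged 9427 ± 592 with HERVH shRNA and 2607 ± 278 with control shRNA (1.86, limma, adjusted p = 1.1e-21). CYR61, a related protein, was higher by 1.36, and BAMBI, a decoy receptor, by 1.04. The lower genes were SMAD4, the shared signal transducer, at -0.39, and ENG, a coreceptor at background with HERVH shRNA and at least 1.05-fold lower there.

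In the list of serum response factor (SRF) and actomyosin genes other than the members, 18 of the 28 genes on the array were higher, 5 lower and 5 not called, with a median of 0.32. FLNC, the muscle filamin, averaged 4220 ± 163 with HERVH shRNA and 595 ± 55.1 with control shRNA (2.83, adjusted p = 6e-27). CSRP1, TAGLN2 and ACTN4, which bind actin or its crosslinkers, were higher by 1.82, 1.70 and 1.10. The lower genes were TPM3, MYLK, RHOA, TPM4 and SRF itself, with differences of -0.95, -0.40, -0.25, -0.19 and -0.18. MKL1 and MKL2, coactivators of SRF named after their values were seen, were higher by 1.00 and 0.24 (limma, adjusted p = 2.3e-13 and 0.044). The calls of SRF and TPM4 did not hold without single samples (SRF without control replicate 2 or 3 or HERVH replicate 2, adjusted p up to 0.13, and TPM4 without any 1 sample but HERVH replicate 1, adjusted p up to 0.2), or without the variance trend (adjusted p = 0.11 for SRF and 0.086 for TPM4). That of MYLK was lost with the mean of its probes (adjusted p = 0.23), and TPM4 changed sign with it, to 0.05 (adjusted p = 0.67).

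Markers of other cell types were read as well. In the smooth muscle list, which shares MYOCD with the SRF list, 3 of 7 were higher and 0 lower, and the summed signal was 8305 to 8598 with HERVH shRNA and 1354 to 1437 with control shRNA. ACTG2, the enteric smooth muscle actin, averaged 7903 ± 141 with HERVH shRNA and 876 ± 41.9 with control shRNA (3.17, adjusted p = 2e-29) and made up most of that sum. MYH11, the smooth muscle myosin that defines mature cells, averaged 102 ± 7.45 and 85.6 ± 4.64, and DES and LMOD1 were not called and lay at background. MYOCD, a coactivator of SRF, averaged 82.9 ± 4.61 and 66.3 ± 5.94. Its call was lost without 1 control sample (replicate 3, adjusted p = 0.067), and that of MYH11 without control replicate 1 or 2 or HERVH replicate 2 or 3 (adjusted p up to 0.15), with equal medians (adjusted p = 0.064) and with the mean of its probes (adjusted p = 0.66).

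In the fibroblast list, which shares COL1A1, COL1A2, COL3A1 and DDR2 with other lists used here, 7 of 9 were higher and 0 lower, and the summed signal was 4220 to 4386 with HERVH shRNA and 1591 to 1619 with control shRNA. COL1A2, a chain of type I collagen, averaged 2774 with HERVH shRNA and 651 with control shRNA, higher by 2.09. It made up most of the sum with HERVH shRNA. MFAP5, a microfibril protein, was higher by 1.98, and NT5E, the surface enzyme CD73, by at least 2.22-fold. DDR2, a collagen receptor, was above background in the 3 HERVH shRNA samples and in 0 of the 3 control shRNA samples, and was at least 1.11-fold higher with HERVH shRNA. The part of such cells in the members' differences was not tested.

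Of the members 60.5% were higher, against 15.7% of all genes. The share was 66.7% for collagens (12 of 18), 44.8% for epithelial adhesion genes (13 of 29) and 31.2% for pluripotency markers (5 of 16). Of the pluripotency markers 56.2% (9 of 16) were lower, against 14.0% of all genes. These shares were not tested against each other. The medians were 0.66 for the members, 0.60 for collagens, 0.10 for epithelial adhesion and -0.37 for pluripotency markers. CDH1, or E-cadherin, the epithelial cadherin repressed in EMT and chosen here with its values known, averaged 2148 ± 29.3 with HERVH shRNA and 2225 ± 75.3 with control shRNA and was not called (-0.05, adjusted p = 0.66). Among the 5 epithelial genes that were lower were OVOL2 (-1.72), EPCAM (-0.91) and KRT18. KRT18 was at background with HERVH shRNA and at least 2.01-fold lower there. GRHL2 (-0.73) was also lower and was named after its values were seen. OVOL2 and GRHL2 are transcription factors that maintain epithelia. Among the 13 epithelial genes that were higher was CLDN6, an embryonic claudin, by 1.13. MARVELD2 and the keratin KRT8, named after their values were seen, were higher by 0.85 and 0.61.

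**Figure D4:**
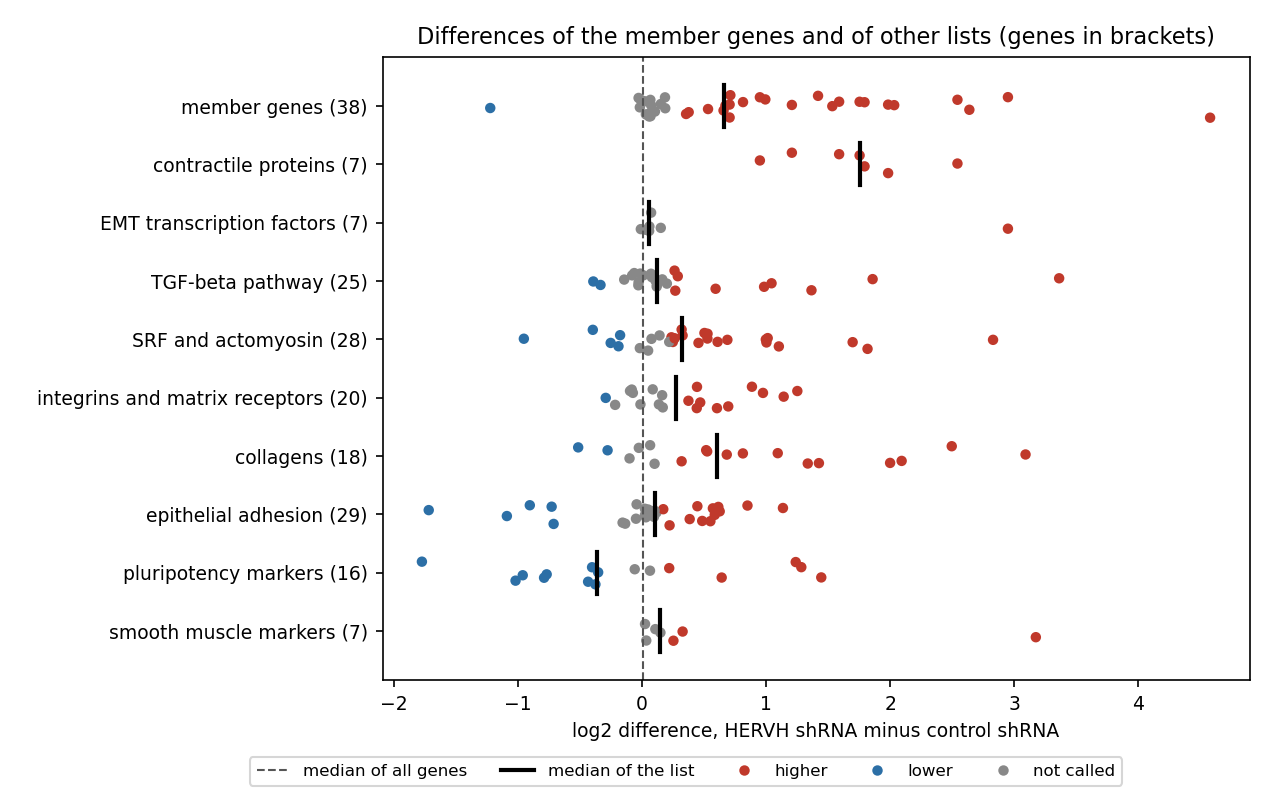
Difference of each gene in log2 units, HERVH shRNA minus control shRNA, for the members, 2 of their roles and 7 other lists, with the number of genes in brackets. Black bars are list medians and the dashed line is the median of all genes (0.01). The contractile genes have a median of 1.75, the EMT transcription factors 0.06 and the pluripotency markers -0.37.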

How the data were processed

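Total RNA (500 ng per sample) of 6 H1 samples was labelled and read on Illumina arrays, and GenomeStudio is named, without a version, in the submitters' processing notes. The authors deposited a value table of 1 linear intensity per probe and sample, with background and normalization settings not given in the sources used here. Its columns carry the sample accessions. A second deposited table pairs probe identifiers with gene names (text, no unit), and all 47230 identifiers matched. Its 12 columns of signals and detection p-values carry no sample's name and were not used.

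Intensities were quantile normalized, floored at 16 (no value was lower) and log2 transformed. HERVH shRNA was compared with control shRNA by limma 3.58.1 in R 4.3.3 (lmFit, eBayes with trend) over all probes with no filter and Benjamini-Hochberg adjustment, tested first on simulated data. With 3 arrays a group, their number limits the precision. No block was used, because the labels do not say that equal replicate numbers share a culture or day. Samples with the same replicate number did not deviate together (correlations of 0.051, 0.001 and 0.025). The background limit was chosen after seeing the data. The members and all lists were chosen with earlier results of these data known. Every member is named, and from each other list at most 4 called genes with the largest absolute differences. Further genes were added after their values were seen, and not all of these are marked in the text. Some results for genes of the other lists are not reported here. Motifs were counted with Python 3.11.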

Additional observations from a re-analysis of the deposited data

How the results depend on the processing

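Other settings were quantile normalization left out, floors of 8 and 32, filters at the 50th and 70th percentiles of level, other variance models, array weights, equal medians, the mean of a gene's probes, a replicate block and each sample left out. Normexp background correction (offsets of 16 and 50) was added after seeing the data. The count of 24 called members was 24 under each of these settings except the filters, with 23 of 27 and 20 of 21 members left. Of all probes left by the same filters, 12162 of 23615 and 10326 of 14169 were called. The members' median of 0.66 moved to 0.95 and 1.42 under the filters, which leave out dim members, and to 0.60 with equal medians. The 12245 called probes became 12390 with the replicate block, and the members' count and median stayed at 24 and 0.66. No member's call changed with the block. Leaving out 1 sample gave 11206 to 11860 probes, 24 members and medians of 0.62 to 0.69. Of the 24 called members, 23 kept direction and call in all alternatives that held their probe. The filter at the 50th percentile left out the called member LOX. The filter at the 70th left out LOX, LOXL1, TIMP3 and FN1. LOXL1 lost its call with the mean of its probes (0.08), where SNAI2 gained one.

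Members that changed sign were not called before or after. Without quantile normalization, PRRX1, FAP and LOXL2 were at 0.035, 0.023 and 0.067. With array weights POSTN was at -0.007, with equal medians THY1 was at -0.032 and LOXL2 at 0.023, and with mean probes TWIST2 was at -0.047 and DCN at -0.007. Over the samples left out, ZEB2 ranged from -0.048 to 0.138, LOXL2 from -0.074 to 0.084, PRRX1 from -0.037 to 0.028, POSTN from -0.118 to 0.189, SNAI1 from -0.033 to 0.071, FAP from -0.063 to 0.021 and TWIST2 from -0.015 to 0.11. TPM4, no member, was called lower and was at 0.048, not called, with mean probes. The cause was not tested. Neqc of the other table was not run, because its columns carry no sample's name. Signal over background limits SNAI1, ZEB1, ZEB2, PRRX1, FAP, LUM, DCN, FBN1, LOXL2 and MMP2, for which a difference was not detectable here.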

Other observations

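Collagens, which the member list leaves out, were higher in 12 of 18 genes and lower in 2. COL8A1, a collagen of vessel walls and endothelia, averaged 1660 ± 72.0 with HERVH shRNA and 195 ± 9.18 with control shRNA (3.09, limma, adjusted p = 5.6e-28). COL11A1 and COL1A2, chains of fibrillar collagens, were higher by 2.50 and 2.09, and COL12A1 by 2.00. Lower, and named after their values were seen, were COL2A1, the cartilage collagen, at background with HERVH shRNA and at least 1.31-fold lower there, and COL6A2 (-0.28). The call of COL6A2 was lost without control replicate 1 or HERVH replicate 3 (adjusted p up to 0.12). Of the integrins and matrix receptors, 10 of 20 were higher and 1 lower. ITGA3, CD44, DDR1 and ITGA2, receptors for laminin, hyaluronan and collagen, were higher by 1.25, 1.14, 0.97 and 0.89. ITGB3, named after its values were seen, was called lower but lay at background in both groups, and lost its call without control replicate 1 or HERVH replicate 3 (adjusted p up to 0.23) and without quantile normalization (adjusted p = 0.068).

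Of 10 neural crest markers 4 were higher and 3 lower, of 6 mesoderm markers 1 and 1, of 4 endoderm markers 0 and 1, of 5 trophoblast markers 2 and 0, and of 7 endothelial markers 2 and 1. Their summed signals with HERVH shRNA and with control shRNA were 2395 to 2589 and 2533 to 2735 for neural crest, 578.5 to 596.2 and 414.5 to 446 for mesoderm, and 213.7 to 245.2 and 245 to 256.3 for endoderm. For trophoblast they were 1245 to 1293 and 619.6 to 641.4, and for endothelium 667.2 to 698.7 and 661.8 to 739.2. These sums contain background. In the mesoderm list only HAND1 was called higher, averaging 221 with HERVH shRNA and 57.0 with control shRNA. T, MIXL1, MESP1 and TBX6 of that list were not called. TFAP2C made up most of the trophoblast sum. ETS1, named after its values were seen, averaged 1597 with HERVH shRNA and 1918 with control shRNA and made up most of the neural crest sum. Also lower in that list were SOX9 (-0.50, limma, adjusted p = 2.8e-05) and FOXD3. FOXD3, named after its values were seen, was at background with HERVH shRNA and at least 1.19-fold lower there. TFAP2A, a transcription factor of neural crest and surface ectoderm, was at least 2.65-fold higher with HERVH shRNA, and HAND1, of lateral mesoderm and trophoblast, at least 2.82-fold higher. TFAP2C, of trophoblast and germ cells, averaged 945 ± 33.8 with HERVH shRNA and 349 ± 5.77 with control shRNA (limma, adjusted p = 2.6e-19). The endoderm factors GATA4, GATA6 and SOX17 were at background in both groups and not called. FOXA2, also of endoderm, was at background with HERVH shRNA and at least 1.07-fold lower there, a call lost with the mean of its probes (adjusted p = 0.14). The lower mesoderm call, EOMES, was lost without control replicate 1 or 3 or HERVH replicate 2 or 3 (adjusted p up to 0.14). CDH5, called higher among endothelial markers at background, lost its call without control replicate 2 or HERVH replicate 3 (adjusted p up to 0.18). The other endothelial calls, ESAM (0.46, limma, adjusted p = 5.1e-05) and TEK (-0.38, adjusted p = 0.00052), held with each sample left out. Among the pluripotency markers, LEFTY1, LEFTY2 and UTF1 were higher by 1.28, 1.24 and 1.44, while TERF1, a telomere protein, was lower (-1.78).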
